A study of Homo sapiens with 6 samples.

Results

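Cytoplasmic ribosomal protein mRNAs were examined in extracellular vesicles (EVs) of 2 human cell lines, WT Jurkat, which was derived from a T cell leukemia, and its somatic mutant JinB8, which lacks CD47. The members were genes whose symbol has the form of a ribosomal protein of the large (RPL) or small (RPS) subunit, including the stalk proteins RPLP1 and RPLP2 and paralogs whose symbols end in L or L1, with pseudogenes left out. The rule used names and signal only, without the comparison of the groups, although it was chosen with earlier results of these data known. It gave 64 genes, 42 of the large and 22 of the small subunit, of 18417 genes with a probe set that carries 1 gene symbol. The 6 arrays were Affymetrix whole-transcript human gene arrays, 3 for WT EVs (cell line JK, genotype CD47_WT) and 3 for CD47- EVs (JinB8). Both lines were untreated and grown for 24 to 48 h in serum-free HITES medium, which contains hydrocortisone, insulin and transferrin, before EVs were precipitated from the concentrated medium and 300 ng of total RNA was labeled per array. CD47- EVs came from 1 mutant line, so loss of CD47 cannot be told apart from other differences between the lines. EVs were precipitated with Exo-quick or Exo-spin without a statement of which preparation had which, so the kit cannot be set against the groups. Replicates are described as cell culture replicates, and p values measure the spread between these preparations, which may be technical.

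Ribosomal proteins assemble with ribosomal RNA into the large subunit, which joins amino acids and holds the exit tunnel for the new protein, and the small subunit, which binds the mRNA and reads its codons. Their mRNAs are among the most abundant of growing cells. Many begin with a C followed by a run of pyrimidines at the cap, the 5′ terminal oligopyrimidine (5′ TOP) motif, through which their translation is controlled together by mTOR signaling and LARP1, and short, abundant mRNAs of this class are often seen in EV RNA.

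Values are log2 values from robust multi-array average (RMA), in which a difference of 1 is a doubling, and they are relative levels within the RNA of each EV preparation. More copies of an mRNA per vesicle, more vesicles that carry it and less of the other RNA therefore cannot be told apart. Probes differ in brightness, so levels of different genes are signals and not copy numbers. The 341 olfactory receptor genes, used as a gauge of background, had a median of 5.49, and 95% of them lay below 6.79. This gauge was not level between the groups. In CD47- EVs 237 of the 341 were lower, with a median log2 difference (CD47- minus WT) of -0.046, beside 0.0029 over all genes, and 0 were called as changed in limma. Members with a mean above 6.79 are called bright here, and 40 of the 64 were bright. CD47 itself had log2 values of 4.72, 4.69 and 4.72 in WT EVs and 4.58, 4.67 and 4.94 in CD47- EVs, below the olfactory receptor median in all 6 arrays, so this probe set did not separate the groups and does not check the labels. Markers of the T cell source were not called as changed (0 of 12 measured, with limma; 3 at an unadjusted p under 0.05), with a mean level of 5.98 to 6.12 in WT and 6.15 to 6.18 in CD47- EVs. That mean was higher in every CD47- array than in every WT array, and its part in the results on ribosomal proteins was not tested. None of the measured markers of B cells, myeloid cells, erythroid cells, platelets, endothelium or liver (30 genes) was called either, 2 had an unadjusted p under 0.05, and the mean level of each of these lists lay between 4.80 and 5.55.

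Of the 64 members, 57 encode canonical ribosomal proteins, 36 of the large and 21 of the small subunit. The other 7 were paralogs, namely RPL3L, RPL7L1, RPL10L, RPL22L1, RPL26L1, RPL39L and RPS27L. RPL6, RPL9, RPL13A, RPL21, RPL36A, RPL37 and RPL39 of the large subunit and RPS10, RPS12, RPS18 and RPS26 of the small subunit had only probe sets listed together with other symbols and so were not members. Ribosomal protein mRNAs have many processed pseudogenes of nearly the same sequence, from 0 for 6 of the paralogs to 95 for RPL23A in RefSeq by symbol. A probe set can also bind RNA copied from such a locus, and the values of single members are uncertain to that extent.

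The 5′ ends of members were read from RefSeq (GRCh38.p14), in which 53 of the 64 members had an annotated start. RPL5, RPL7, RPL8, RPL23, RPL23A, RPL30, RPL3L, RPL39L, RPS2, RPS15A and RPS20 had no entry. A start was counted as a 5′ TOP motif where its first base was C and at least 4 pyrimidines followed. For a gene with several annotated starts, the start with the longest such run was used, in counts and windows. This choice favors finding the motif, and it was made for members and for all genes alike. The motif was found in 37 of 53 members (69.8%) against 1404 of 27305 genes of the promoter table (5.14%). Windows of 15 bases before and 15 from the annotated start are shown 5′ to 3′ on the gene's strand. The pyrimidine run at the start is in capitals, and a window wholly in lower case has no such run. The first set shows members called higher in CD47- EVs, 7 with a run and then 3 without:

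RPL18 (chr19:48619164-48619193, minus strand): accccagcccgttctCTCTTTCCggacctg
RPL28 (chr19:55385917-55385946, plus strand): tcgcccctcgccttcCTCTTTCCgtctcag
RPL35 (chr9:124861943-124861972, minus strand): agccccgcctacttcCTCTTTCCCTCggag
RPLP2 (chr11:809952-809981, plus strand): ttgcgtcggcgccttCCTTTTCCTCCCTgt
RPS3 (chr11:75399503-75399532, plus strand): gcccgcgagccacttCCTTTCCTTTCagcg
RPS16 (chr19:39435935-39435964, minus strand): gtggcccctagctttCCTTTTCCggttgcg
RPS19 (chr19:41860240-41860269, plus strand): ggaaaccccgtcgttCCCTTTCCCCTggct
RPS28 (chr19:8321481-8321510, plus strand): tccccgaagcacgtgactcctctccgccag
RPS4X (chrX:72277234-72277263, minus strand): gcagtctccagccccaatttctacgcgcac
RPL27 (chr17:42998404-42998433, plus strand): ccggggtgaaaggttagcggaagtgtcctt

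The second set pairs a canonical gene with its paralog, to show where the start differs between them:

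RPS27 (chr1:153990747-153990776, plus strand): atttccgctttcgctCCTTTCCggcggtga
RPS27L (chr15:63157463-63157492, minus strand): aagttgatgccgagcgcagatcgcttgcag
RPL26 (chr17:8383179-8383208, minus strand): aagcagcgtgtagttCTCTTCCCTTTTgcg
RPL26L1 (chr5:172958714-172958743, plus strand): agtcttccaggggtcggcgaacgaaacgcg
RPL22 (chr1:6199581-6199610, minus strand): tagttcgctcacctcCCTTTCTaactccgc
RPL22L1 (chr3:170870181-170870210, minus strand): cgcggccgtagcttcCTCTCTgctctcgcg

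In these pairs RPS27 and RPL26 began with a pyrimidine run that RPS27L and RPL26L1 lacked, whereas both RPL22 and RPL22L1 had one. Among paralogs with an entry, 1 of 5 had the run, against 36 of 48 other members. The run was about as frequent among members called higher in CD47- EVs (10 of 15, 66.7%) as among those not called (27 of 38, 71.1%). Members with the run had a median log2 difference of 0.41 (37 genes, 10 called), and those without it had 0.18 (16 genes, 5 called), or 0.31 for the 12 of these that were not paralogs. A start is as the annotation gives it, and a transcript in these cells can begin a few bases away.

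Motifs were searched on both strands of the 300 bases around each start, each counted by itself although matches of different motifs can overlap. A gene was counted where any of its annotated starts had the motif, so genes with several starts had more sequence searched. CCGGAAG, the core that ETS family factors bind, was in 37.7% of the 53 members with an entry and in 12.2% of the 27305 genes. The GC box GGGCGG was in 62.3% and 48.3%. AAGATGGC, the core that YY1 binds, was in 9.43% and 3.52%, and the TATA box TATAAA was in 11.3% and 14%. Of the members with an entry, CCGGAAG was in 4 of the 15 called higher and in 16 of the 38 not called. In the same order, GGGCGG was in 13 and 20, AAGATGGC in 3 and 2, and TATAAA in 3 and 3. These splits were not tested.

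Nearly all of the larger differences among the ribosomal protein mRNAs ran in 1 direction, toward higher values in CD47- EVs. With limma and Benjamini-Hochberg adjustment over all genes, 19 of 64 members (29.7%) passed an adjusted p under 0.05 and were higher, against 0.668% of all genes. Of these, 13 encode large subunit proteins (RPL30, RPL3, RPL18, RPL8, RPLP2, RPL14, RPL5, RPL28, RPL35, RPL4, RPLP1, RPL24 and RPL27) and 6 small subunit proteins (RPS28, RPS20, RPS4X, RPS3, RPS16 and RPS19). None was lower in limma, against 0.0163% of all genes, and at an unadjusted p under 0.05 there were 42 members, all higher. In a per-gene linear model without shared variance, 0 members passed the adjusted threshold and 35 passed unadjusted, all higher. The median log2 difference (CD47- minus WT) was 0.34 over the members, 0.33 for the large and 0.38 for the small subunit, beside 0.0029 over all genes. The difference was above 0 in 54 of 64 members and ranged from -0.21 for RPL22 to 1.08 for RPL30. All 3 CD47- arrays lay above all 3 WT arrays in 41 members (64.1%, against 7.3% of all genes) and below in 1, RPL26L1 (against 5.53%), and the groups overlapped in 22.

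**Figure D1:**
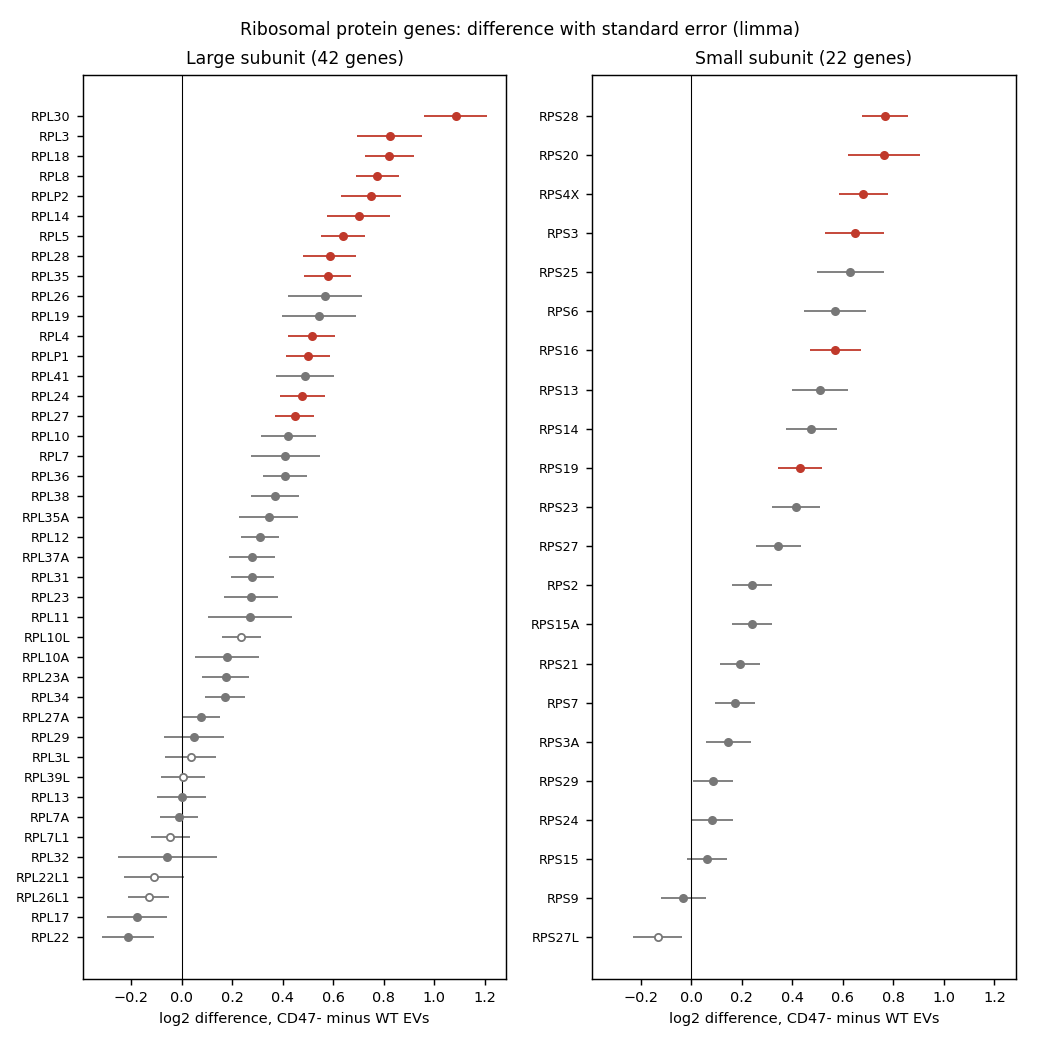
Each point is the log2 difference between CD47- and WT EVs (x axis, log2 units) of 1 ribosomal protein gene, with large subunit genes in the left panel and small subunit genes in the right, bars for the standard error from limma (3 arrays per group), filled red for called genes and open for paralogs. The 19 called genes lie between 0.43 and 1.08, and the paralogs lie between -0.13 and 0.24.

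The count of 19 depended on single arrays and on scaling. It was 32 after centering each array on the olfactory receptor genes and 12 after a further quantile normalization, with 0 lower in both. The olfactory receptor genes were themselves mostly lower in CD47- EVs, so centering on them raised the differences of all genes. The count was 12 without WT replicate 1, 14 without WT replicate 2 and 6 without WT replicate 3. Without CD47- replicates 1, 2 and 3 it was 14, 11 and 7. RPL8, RPL30, RPL18, RPL5, RPS28 and RPS4X passed whichever array was left out, and the same 6 had an adjusted p under 0.01 with all arrays (limma). Relative to each member's mean over the 6 arrays, the median member deviated by -0.08, -0.14 and -0.32 in WT EVs and by 0.13, 0.14 and 0.17 in CD47- EVs. WT replicate 3 was the lowest array for the ribosomal proteins, and there the median over all genes deviated by -0.03. Without that array the median difference of the members was still above 0, at 0.27.

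RPL30, a large subunit protein at the contact between the subunits, had the largest difference of the members. Its log2 value was 7.05, 7.06 and 6.82 in WT EVs and 7.74, 8.17 and 8.26 in CD47- EVs. The 3 CD47- arrays were well above the WT arrays, a 2.12-fold difference (log2 1.08 ± 0.12 SE, adjusted p = 0.000997). RPL8, which lies beside the peptidyl transferase center, had values of 8.51, 8.36 and 8.30 in WT and 9.07, 9.17 and 9.25 in CD47- EVs. The gap between the groups was larger than the range within either, and the fold was 1.71 (log2 0.77 ± 0.08 SE, adjusted p = 0.000684). RPL18 had 8.21, 8.27 and 8.09 in WT and 8.86, 8.96 and 9.20 in CD47- EVs. The groups were again apart, by 1.77-fold (log2 0.82 ± 0.10 SE, adjusted p = 0.00117).

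RPL5 and RPL11 bind 5S ribosomal RNA and, outside the ribosome, the p53 regulator MDM2. RPL5 had log2 values of 8.84, 8.95 and 8.70 in WT and 9.36, 9.52 and 9.52 in CD47- EVs. It was higher in every CD47- array, by 1.56-fold (log2 0.64 ± 0.09 SE, adjusted p = 0.00387). RPL11 had 4.16, 4.56 and 4.40 in WT and 5.09, 4.30 and 4.55 in CD47- EVs. Its groups overlapped, its signal was below the olfactory receptor median in all arrays, and it was not called (log2 0.27 ± 0.17 SE, adjusted p = 0.771).

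The P stalk of the large subunit recruits elongation factors, and both of its measured proteins were called. RPLP2 had log2 values of 6.83, 6.80 and 6.54 in WT and 7.19, 7.63 and 7.59 in CD47- EVs. The groups did not overlap, and the fold was 1.68 (log2 0.75 ± 0.12 SE, adjusted p = 0.0111). The call was lost when WT replicate 3, CD47- replicate 2 or CD47- replicate 3 was left out, with an adjusted p of up to 0.0888. RPLP1 had 7.36, 7.26 and 7.36 in WT and 7.67, 7.85 and 7.95 in CD47- EVs. It too was higher in all CD47- arrays, by 1.41-fold (log2 0.50 ± 0.09 SE, adjusted p = 0.0189), but it was called only while all arrays were used or CD47- replicate 1 was left out, with an adjusted p of up to 0.106 otherwise.

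RPL3, whose protein reaches toward the peptidyl transferase center, had log2 values of 6.86, 7.21 and 6.84 in WT and 7.75, 7.57 and 8.06 in CD47- EVs. The highest WT array, replicate 2, stayed below the lowest CD47- array, and the fold was 1.77 (log2 0.82 ± 0.13 SE, adjusted p = 0.0101). It was not called without WT replicate 1 or 3, with an adjusted p of up to 0.0891. RPL35, at the mouth of the exit tunnel, had 6.29, 6.15 and 6.0 in WT and 6.61, 6.72 and 6.84 in CD47- EVs. These arrays did not overlap either, with a 1.49-fold difference (log2 0.58 ± 0.09 SE, adjusted p = 0.0118) that lost its call when WT replicate 3, CD47- replicate 2 or CD47- replicate 3 was left out (adjusted p up to 0.0819). RPL27 had the tightest WT values of the called genes, 7.14, 7.16 and 7.13, and 7.69, 7.56 and 7.53 in CD47- EVs. The fold was 1.36 (log2 0.45 ± 0.08 SE, adjusted p = 0.0176), and the call was lost whichever array was left out (adjusted p up to 0.0891). The other 4 called genes of the large subunit, RPL14, RPL4, RPL28 and RPL24, had log2 differences of 0.48 to 0.70 and adjusted p of 0.0218 to 0.0289. Each lost its call without at least 4 of the 6 arrays taken one at a time, WT replicate 3 and CD47- replicate 3 among them in every case, with an adjusted p of up to 0.162.

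In the small subunit, RPS28, a protein near the channel where mRNA leaves, had log2 values of 9.16, 9.06 and 8.87 in WT and 9.72, 9.76 and 9.91 in CD47- EVs. The groups were separated by more than their ranges, and the fold was 1.70 (log2 0.77 ± 0.09 SE, adjusted p = 0.00143). RPS4X, encoded on the X chromosome, had 7.39, 7.48 and 7.12 in WT and 7.98, 7.95 and 8.09 in CD47- EVs. The CD47- arrays lay close together above the WT arrays, by 1.60-fold (log2 0.68 ± 0.10 SE, adjusted p = 0.00531).

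RPS16, whose tail touches the tRNA in the P site, had log2 values of 7.03, 7.07 and 6.77 in WT and 7.46, 7.42 and 7.70 in CD47- EVs. The arrays did not overlap, with a fold of 1.48 (log2 0.57 ± 0.10 SE, adjusted p = 0.0225). RPS3, at the mRNA entry and also known as a DNA repair factor, had 8.03, 7.99 and 7.82 in WT and 8.40, 8.50 and 8.89 in CD47- EVs. CD47- replicate 3 was the highest of these, and the fold was 1.57 (log2 0.65 ± 0.12 SE, adjusted p = 0.0245). RPS20, in the head of the small subunit, had 7.01, 7.30 and 6.95 in WT and 7.71, 7.63 and 8.22 in CD47- EVs. CD47- replicate 3 again stood highest, and the fold was 1.70 (log2 0.76 ± 0.14 SE, adjusted p = 0.0295). RPS19, the gene most often mutated in Diamond-Blackfan anemia, had 6.44, 6.41 and 6.57 in WT and 6.80, 7.05 and 6.86 in CD47- EVs. Its groups were apart by 1.35-fold (log2 0.43 ± 0.09 SE, adjusted p = 0.0476), which was the highest adjusted p among the called members, and the call was lost whichever array was left out (adjusted p up to 0.185). RPS16 and RPS20 were not called without WT replicate 1, WT replicate 3 or CD47- replicate 3, and RPS3 was called with 1 array left out only when that array was CD47- replicate 1 (adjusted p up to 0.196 among these 3).

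**Figure D2:**
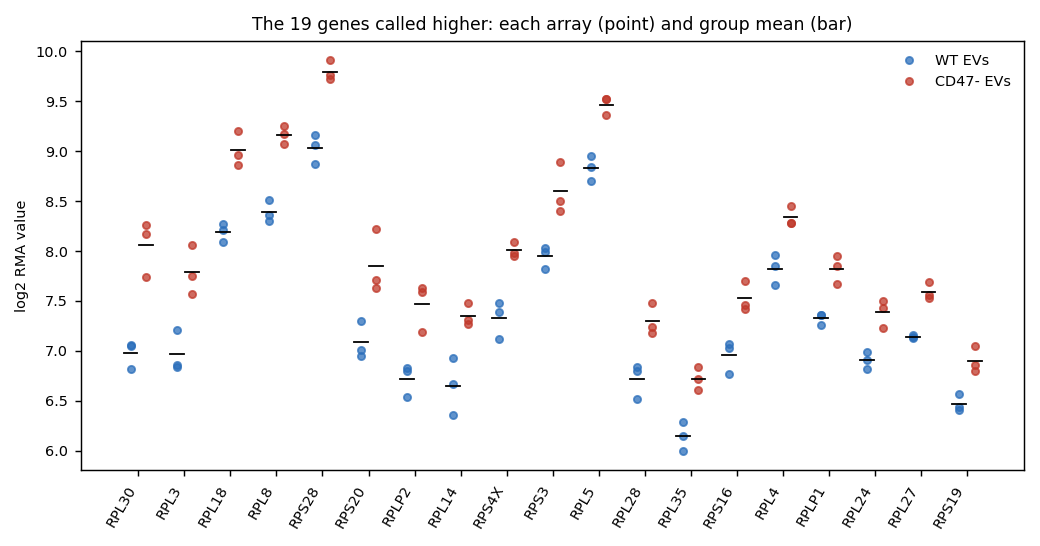
The log2 RMA value (y axis) of each of the 19 called ribosomal protein genes is shown for each array as a point, with WT and CD47- EVs in different colors. In every one of the 19 genes the 3 CD47- points lie above the 3 WT points.

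Among the 45 members that were not called, the smallest p belonged to RPS14, RPS25, RPL36, RPS6 and RPS13, with log2 differences of 0.41 to 0.63 and adjusted p of 0.0580 to 0.0695 (limma), and none of the 5 had overlapping groups. RPS14, RPL41 and RPL10 passed when WT replicate 1 was left out (adjusted p = 0.00934, 0.0238 and 0.0160), RPS13 when WT replicate 2 was (0.0116) and RPS25 when CD47- replicate 2 was (0.0106). At the other end, RPL22, a large subunit protein near the end of the exit tunnel that is needed for the development of alpha-beta T cells, had log2 values of 3.50, 3.26 and 3.37 in WT and 3.23, 2.94 and 3.31 in CD47- EVs. The groups overlapped, and the gene was not called (log2 -0.21 ± 0.10 SE, adjusted p = 0.658). RPL17, a protein of the exit tunnel, had 2.84, 3.33 and 2.94 in WT and 2.71, 2.87 and 2.99 in CD47- EVs, which also overlapped (log2 -0.18 ± 0.12 SE, adjusted p = 0.802). Both signals were far below the olfactory receptor median. RPS9, a protein of the small subunit body beside the mRNA entry, was bright, and its brightest probe set had overlapping groups, with 8.84, 8.56 and 8.80 in WT and 8.61, 8.79 and 8.71 in CD47- EVs (log2 -0.03 ± 0.09 SE, adjusted p = 0.979). Its other probe set had 7.28, 7.11 and 7.20 in WT and 7.33, 7.37 and 7.37 in CD47- EVs, without overlap and not called (log2 0.16, adjusted p = 0.633 over all probe sets). The brightest member, RPS2, had 9.54, 9.51 and 9.38 in WT and 9.69, 9.81 and 9.65 in CD47- EVs. Its groups did not overlap, but the difference of 0.24 was not called (adjusted p = 0.335).

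Members were also grouped by their place in the ribosome, where 29.7% of all members and 0.668% of all genes are the shares called higher to compare with. Of the proteins around the exit tunnel, 2 of 8 measured were called (RPL4 and RPL35), with a median difference of 0.40. Of those at the mRNA entry and decoding site (RPS2, RPS3, RPS9 and RPS23), 1 of 4 was called, with a median of 0.33. Both measured stalk proteins and 1 of the 2 proteins of the 5S particle were called. A list of 16 genes mutated in Diamond-Blackfan anemia, an inherited failure of red cell production, was also used, which does not hold every gene linked to the disease. Of its 12 measured genes, 4 were called (RPS19, RPS28, RPL5 and RPL27), and all 12 had a difference above 0, with a median of 0.34.

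Paralogs of ribosomal proteins are separate genes, several of them restricted to certain tissues, such as RPL3L in muscle and RPL10L in testis. None of the 7 was called in limma (1, RPL10L, at an unadjusted p under 0.05), and their median log2 difference was -0.05 (that of RPL7L1, which was 0.01 after centering on the olfactory receptor genes), beside 0.41 over the other 57 members. The paralogs were also dimmer, with a median level of 5.95 and 1 of 7 bright, beside 7.37 and 39 of 57, and the part of signal in this contrast was not tested. RPL3L had values of 6.17, 5.86 and 5.76 in WT and 5.95, 5.99 and 5.95 in CD47- EVs, with overlapping groups. RPL3 exceeded RPL3L by 0.69, 1.36 and 1.08 in the WT arrays and by 1.8, 1.58 and 2.11 in the CD47- arrays. The difference between gene and paralog was thus larger in every CD47- array, by 0.79 on the log2 scale (exact permutation test, two-sided, p = 0.1). With 3 arrays per group 0.1 is the smallest p this test can give.

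For RPL26 and RPS27 too, the value of the gene minus that of its paralog was higher in every CD47- array than in any WT array. RPL26 read below the brightest probe set of its paralog throughout, and RPS27 read above its paralog. RPL26 had values of 4.93, 5.02 and 4.43 in WT and 5.26, 5.21 and 5.61 in CD47- EVs. The brightest probe set of RPL26L1 had 6.31, 6.17 and 6.08 in WT and 6.05, 6.05 and 6.05 in CD47- EVs. By it, RPL26L1 was the only member with all CD47- arrays below all WT arrays (log2 -0.13 ± 0.08 SE, limma adjusted p = 0.764). Within arrays, RPL26 minus this probe set was higher in CD47- EVs by 0.70 (exact permutation test, p = 0.1), although neither gene was called by itself. The other probe set of RPL26L1 had 2.89, 2.76 and 2.82 in WT and 2.87, 2.74 and 2.80 in CD47- EVs. It was far below the olfactory receptor median, its groups overlapped (log2 -0.02), and RPL26 read above it in every array. RPS27, a zinc finger protein of the small subunit, had 7.76, 7.64 and 7.45 in WT and 7.89, 7.99 and 8.0 in CD47- EVs. RPS27L, a p53 target, had 4.37, 4.23 and 4.33 in WT and 4.37, 4.15 and 4.01 in CD47- EVs, with overlapping groups. RPS27 minus RPS27L was higher in CD47- EVs by 0.48 (exact permutation test, p = 0.1). RPS27L lay below the olfactory receptor median of 5.49 in all arrays, so its probe set cannot be read as showing no change, and RPL26 lay below that median in 5 of 6 arrays. The brightest probe set of RPL26L1, with a mean of 6.12, also lay below 6.79, within the range of most olfactory receptor genes.

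In the other 3 pairs the difference between gene and paralog overlapped between the groups. RPL7 had values of 7.0, 7.42 and 6.86 in WT and 7.40, 7.37 and 7.74 in CD47- EVs, and RPL7L1, linked to ribosome assembly, had 6.88, 6.75 and 6.82 and 6.74, 6.85 and 6.72. The gap changed by 0.46 (exact permutation test, p = 0.3), with CD47- replicates 1 and 2 inside the WT range. RPL10, among the last proteins to join the large subunit, had 7.83, 7.46 and 7.37 in WT and 7.93, 8.04 and 7.96 in CD47- EVs, and RPL10L had 6.31, 6.17 and 6.32 and 6.55, 6.54 and 6.44. Here both genes of the pair had higher values in all CD47- arrays without being called, and the gap differed by 0.19 (exact permutation test, p = 0.3). RPL22L1 had 3.17, 3.02 and 3.52 in WT and 3.06, 3.05 and 3.28 in CD47- EVs, and the gap of RPL22 to it differed by -0.10 (exact permutation test, p = 0.6). The 6 tests form 1 family, and none can pass a threshold of 0.05 in this design. RPL39L had 3.74, 3.99 and 3.72 in WT and 3.79, 3.81 and 3.85 in CD47- EVs, and its parent RPL39 had no probe set of its own.

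**Figure D3:**
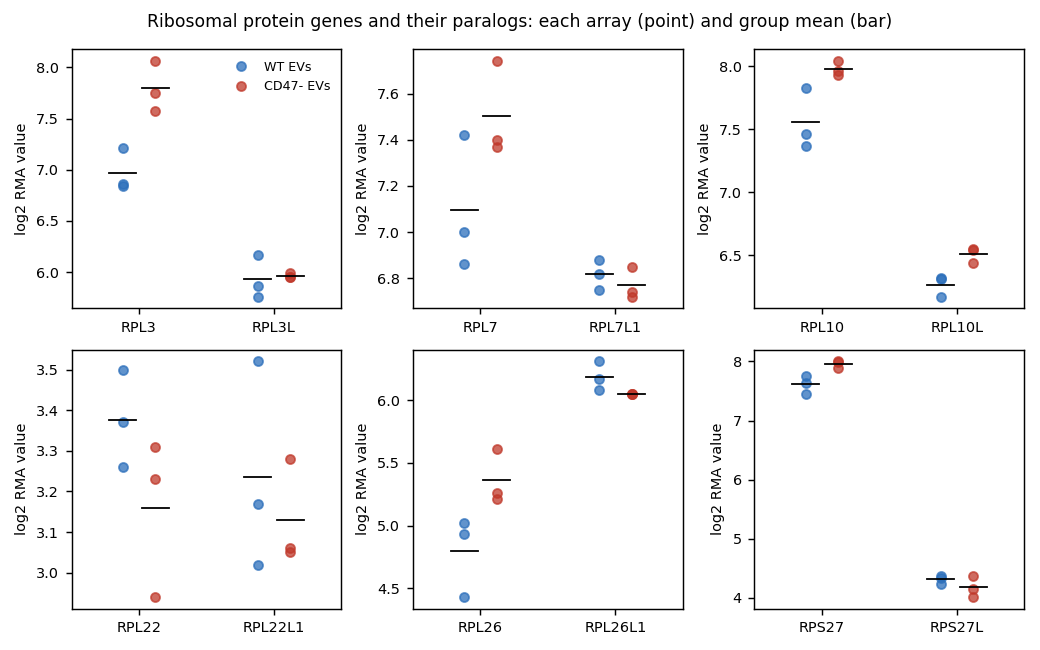
The log2 RMA value (y axis) of a ribosomal protein gene and of its paralog is shown for each array as a point, in 6 pairs. The CD47- points of RPL3, RPL26 and RPS27 lie above their WT points, whereas the points of RPL3L and RPS27L overlap between the groups and those of RPL26L1 are lower in CD47- EVs. Each gene is shown by its brightest probe set. The dimmer probe set of RPL26L1, not shown, overlapped between the groups.

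The calls went with signal. Of the 40 bright members, 17 were called and the median difference was 0.48. Of the 24 dimmer members, RPL35 and RPS19 were called, and the median was 0.13. The mean over 6 arrays includes the CD47- values, and RPL14, RPL28 and RPLP2, all called, passed 6.79 only through them. With the mean of the WT arrays instead, 14 of 37 bright members were called, with a median of 0.48, and 5 of 27 dimmer ones, with a median of 0.18. Across the 64 members, the difference and the mean level had Pearson r = 0.59 and Spearman rho = 0.57, a description over genes measured on the same 6 arrays. Of 824 bright genes that are no members, 43 (5.22%) were called higher, with a median difference of 0.03, or 29 of 786 (3.69%) with the WT mean. These shares describe the members and test nothing. A dim probe set may not show a change at its full size, and whether this holds for the members near background was not tested.

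**Figure D4:**
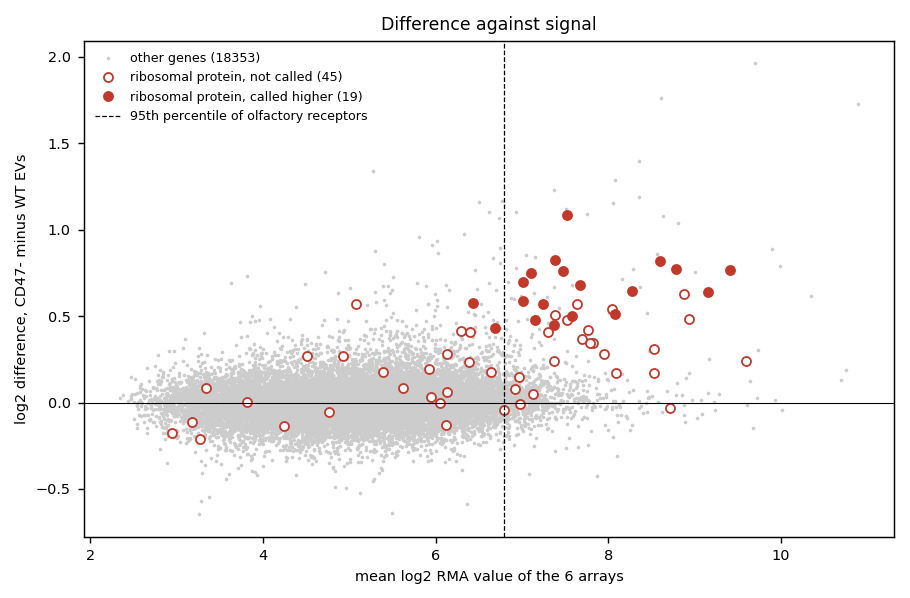
The log2 difference between CD47- and WT EVs (y axis) is plotted against the 6-array mean of the log2 RMA values (x axis) for all genes, with ribosomal protein genes marked. Above 6.79, the upper limit of most olfactory receptor genes, most members lie above 0, at a median of 0.48, whereas other genes of that brightness center near 0.

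Other probe sets of the same genes mostly gave differences of the same sign. The 64 members had 99 probe sets, and 23 members had more than 1. Of the 35 probe sets that were not the brightest of their gene, 31 had a difference above 0, and their median of 0.27 stood beside 0.24 for the brightest of the same genes. In a limma test over all probe sets with 1 symbol, 5 of the 35 were called higher (against 0.709% of all such probe sets) and 0 lower. The others of RPS28 had differences of 0.79 and 0.81, beside 0.77 for its brightest, and those of RPL5 had 0.86 and 0.68, beside 0.64. The other probe set of RPL24 had 0.48, as had the brightest. Disagreement was seen for RPL14, with 0.70 for the brightest and 0.35, not called, for the other, for RPLP1, with 0.50 and 0.27, not called, and for RPL34, with 0.17 and, 3 to 4 log2 units dimmer, -0.23, neither called. Values also differed, without a call on either side, for RPS25 (0.63 for the brightest and 0.31), RPL41 (0.49 and 0.13), RPS7 (0.17 and -0.05), RPS15 (0.06 and 0.35), RPL29 (0.05 and 0.28), RPL13 (-0.0011 and 0.12 for both others) and RPS9, given above. RPL26L1, also given above, had -0.13 and, for a far dimmer probe set, -0.02, neither called. RPL41 had 2 probe sets with identical values in all arrays, which are 1 measurement. Probe sets listed with a ribosomal protein symbol and other symbols were 47 in number, with 45 distinct sets of values. Their median difference was 0.17, with 34 above 0. In a separate limma fit over all probe sets with at least 1 symbol, 4 of them were called higher and 0 lower. The share called over all probe sets of that fit was not determined, so these 4 calls have no share to compare with.

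**Figure D5:**
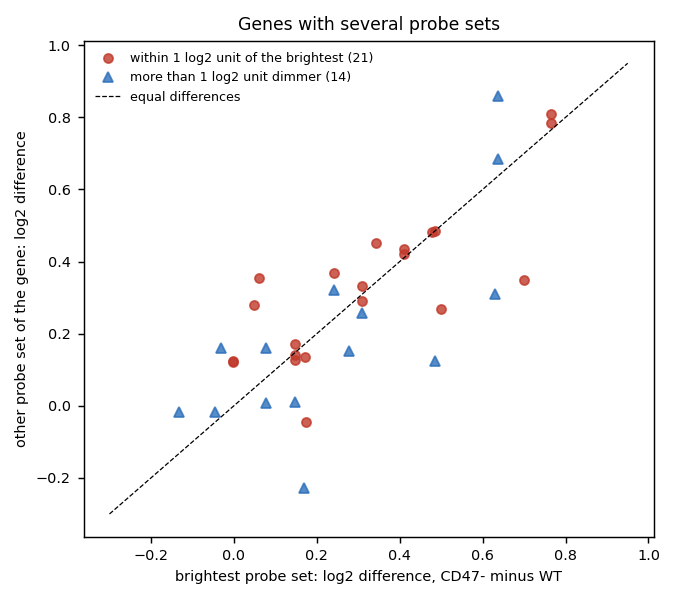
For the 23 ribosomal protein genes with several probe sets, the log2 difference of each other probe set (y axis) is plotted against that of the brightest (x axis), marked by whether the other probe set is within 1 log2 unit of the brightest in level (21) or dimmer by more (14). Of the 35 points, 31 lie above 0 on the y axis.

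Genes close to the ribosomal proteins in function were compared with the same fit. FAU, which carries the small subunit protein eS30, had values of 6.63, 6.47 and 6.25 in WT and 6.39, 6.31 and 6.21 in CD47- EVs, with overlapping groups and no call (log2 -0.15 ± 0.10 SE, adjusted p = 0.802). RPL36AL, a close copy of RPL36A, was not called either (log2 0.12 ± 0.08 SE, adjusted p = 0.810). Of 22 other mRNAs known to carry a 5′ TOP motif, 4 were called higher and 0 lower, with a median difference of 0.38 and 21 of 22 above 0, beside 0.668% of all genes called higher. The 4 were the elongation factors EEF1G (1.08), EEF2 (0.90) and EEF1A1 (0.89) and the poly(A) binding protein PABPC1 (0.74). PABPC1 had 6.83, 6.84 and 6.39 in WT and 7.43, 7.44 and 7.41 in CD47- EVs, again with WT replicate 3 lowest and no overlap (adjusted p = 0.00708). In RefSeq, 14 of 17 of this list with an entry had the pyrimidine run at the start.

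Proteins of the mitochondrial ribosome make a separate machine in mitochondria. None of their 73 genes was called in limma, 7 had an unadjusted p under 0.05 (all higher), and the median difference was 0.05. Their median level was 5.34, below the olfactory receptor median, and 4 of the 73 were bright. Of all genes, 0.668% were called higher. Of 21 symbols of ribosomal protein pseudogenes, 2 were called higher and the median was 0.0073.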

How the data were processed

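RNA of 3 WT and 3 CD47- EV preparations had been hybridized to Affymetrix human gene arrays, which the labels in 1 place call mouse arrays; the human annotation was used. The deposited values are log2 values that the authors made with RMA in Affymetrix Expression Console, per the labels. Versions of these tools, and whether other arrays were normalized with these, are not stated in the sources used here. The RMA method subtracts background, equalizes the distributions of the arrays and sums up probe sets, so values are relative, and the number of arrays limits their precision.

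Probe sets with exactly 1 symbol in the platform annotation were kept (19460 of 33297), and the one with the highest mean stood for each gene. CD47- and WT EVs were compared over all 18417 genes with limma 3.58.1 (lmFit and eBayes, two-sided, no covariate) in R 4.3.3, with Benjamini-Hochberg adjustment and an adjusted p under 0.05. The step was tested on simulated data. No filter on dim genes was applied. The members and gene lists were chosen with earlier results of these data known. Values per array are given for the 8 large and 6 small subunit members with the smallest p, the 2 lowest of each subunit, the paralogs with their parents and the stalk proteins. RPS2 and RPL11 were added after their values were seen. Alternatives changed the scaling (olfactory receptor genes as the reference, or quantiles again), the model (replicate number as a block, weights per array, a trended or an unshared variance), the genes (bright ones only, other probe sets of a gene), the threshold, or the arrays (each left out in turn). A split by WT level was added after the data were seen. Starts and promoters came from RefSeq. Some canonical ribosomal protein genes are not reported here.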

Additional observations from a re-analysis of the deposited data

How the results depend on the processing

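The number of ribosomal protein genes called higher (19, of which 13 large and 6 small subunit) was 32 (20 and 12) after centering the arrays on olfactory receptor genes, which moved the median of all genes from 0.0029 to 0.06, 12 (3 small) after a further quantile normalization, 26 (11 small) among genes above the median level, 6 (4 and 2) at an adjusted p under 0.01 and 0 (0 and 0) in the per-gene model without shared variance. With 1 array left out it was 6 to 14 (large 4 to 9, small 2 to 5). None was called lower under any of these. For the 5′ TOP mRNAs and ribosome genes outside the symbol rule the count of 4 became 8 after centering on olfactory receptors, 7 among genes above the median level and 0 in the per-gene model. The median difference of the members stayed above 0 throughout, at 0.27 to 0.41. The replicate numbers are not said to pair the samples. Deviations from the group means correlated by 0.02, -0.02 and -0.04 in same-numbered arrays. With 3 arrays per group these values cannot decide whether preparations were paired. With the replicate number as a block the count was 15 (11 large, 4 small), and RPL28, RPL4, RPS16 and RPS19 were not called.

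Signs changed only for members that were not called, with differences between -0.11 and 0.17. After centering on olfactory receptors RPL13 was 0.058, RPL32 0.0023, RPL7A 0.048, RPL7L1 0.014 and RPS9 0.028. After quantile normalization RPL29 was -0.0025. With array weights RPL13 was 0.014 and RPL39L -0.017. With the mean of a gene's probe sets RPL13 was 0.081, RPL34 -0.030 and RPS9 0.064, and with the dimmest RPL13 was 0.12, RPL34 -0.23, RPS7 -0.045 and RPS9 0.16. With 1 array left out RPL13 ranged from -0.088 to 0.058, RPL39L from -0.045 to 0.092, RPL7A from -0.046 to 0.0081, RPS9 from -0.12 to 0.020, RPL32 from -0.29 to 0.23, RPL3L from -0.049 to 0.15, RPL22L1 from -0.22 to 0.031 and RPL29 from -0.091 to 0.17. The causes were not tested.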
